A study of Mus musculus with 18 samples.

Results

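The 37 genes described here mark the blood vessels of the brain, and were read in bulk RNA of mouse hypothalamus. They were chosen by name as markers of brain endothelial cells (27 genes, from Cldn5 to Abcg2) and of mural cells (10 genes, from Rgs5 to Notch3), out of 56980 annotated features. Each symbol was taken at the feature with its largest total count. Of the 37 genes, 31 had enough counts to be tested, 24 endothelial and 7 mural. Tie1, Sox17, Vwf, Myl9, Tagln and Anpep did not reach the count minimum, and their levels are given without a test.

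Endothelial cells line the vessels, and in most of the brain they form the blood-brain barrier: tight junctions seal the gaps between them, influx carriers bring in glucose, amino acids and lipids, and efflux pumps return drugs to the blood. Mural cells wrap the outside of the vessels. Pericytes lie on capillaries and support the barrier, and smooth muscle cells contract around arterioles. The hypothalamus is unusual in that the vessels of the median eminence lack this barrier and are fenestrated.

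All mice were wild-type C57BL/6JGpt males, 7 months old in the deposited sample table, with 6 animals in each of 3 groups. Lean Control mice ate chow and were not dosed. DIO+ Vehicle mice were made obese on a high-fat diet from the age of 6 weeks for at least 16 weeks, were accustomed to gavage of the vehicle for 14 days, and then received vehicle by mouth 2 times a day. DIO+ TN-783 mice had the same diet and schedule but were given the compound TN-783, which blocks the NLRP3 inflammasome, with each gavage delivering 50 mg/kg. Dosing lasted 29 days in the labels and 28 days in the deposited sample table. Diet and gavage therefore differed together between the lean and the obese groups and cannot be told apart. The 18 libraries were made from the 3′ ends of polyadenylated RNA and held 1699712 to 3695785 counts each, and RNA integrity numbers ran from 9.4 to 10. Two-sided p-values measure the spread between these animals.

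The start regions of the genes on which the results turn are shown first, since regulators of vessel cells act there. RefSeq holds a start region, from 250 bases before to 50 bases after the transcription start, for 26 of the 37 genes. The letters GGAAG, the core recognised by the ETS factors that endothelial cells depend on, were found on either strand in 19 of 25 windows of the endothelial genes (76.0%), in 3 of 7 windows of the mural genes (42.9%) and in 71.4% of all 32851 windows. The letters TATAAA, those of the TATA box, were in 7 of the 25 endothelial windows (28.0%), in 1 of the 7 mural windows and in 13.6% of all windows. They were counted at any position and on either strand, so a match need not be a working TATA box. The CArG box, read by serum response factor at contractile genes, was in 0 of the 25 endothelial windows, in 1 of the 7 mural windows and in 1.63% of all windows. The 5 windows below are those of the glucose carrier Slc2a1, the growth factor receptor Flt1, the tight junction gene Cldn5, the pericyte gene Rgs5 and the contractile gene Myl9. Capitals mark matches to any of the 3 motifs, none of which overlapped. Slc2a1 (chr4:119108495-119108794, plus strand) and Flt1 (chr5:147725962-147726261, minus strand) each held 1 match to TATAAA, and Flt1 also held 3 ETS cores. The TATAAA match lies before the annotated transcription start in Flt1 but after it in Slc2a1. Cldn5 (chr16:18776597-18776896, plus strand) and Rgs5 (chr1:169655251-169655550, plus strand) held none of these letters, and Myl9 (chr2:156775214-156775513, plus strand) held 1 CArG box. Coordinates are those of RefSeq on GRCm38.p6, and every sequence runs 5′ to 3′ on the strand of its gene.
Slc2a1: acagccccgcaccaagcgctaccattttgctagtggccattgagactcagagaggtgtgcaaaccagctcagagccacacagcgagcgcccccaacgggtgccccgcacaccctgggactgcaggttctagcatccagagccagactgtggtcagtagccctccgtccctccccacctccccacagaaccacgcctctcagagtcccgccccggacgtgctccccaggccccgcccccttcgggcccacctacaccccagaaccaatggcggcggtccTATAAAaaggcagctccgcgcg
Flt1: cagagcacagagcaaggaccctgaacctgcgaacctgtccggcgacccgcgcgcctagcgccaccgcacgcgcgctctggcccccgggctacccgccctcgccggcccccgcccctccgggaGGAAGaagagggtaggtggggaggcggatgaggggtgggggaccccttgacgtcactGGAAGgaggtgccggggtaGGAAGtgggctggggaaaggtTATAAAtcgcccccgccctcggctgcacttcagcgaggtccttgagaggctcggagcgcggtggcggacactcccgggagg
Cldn5: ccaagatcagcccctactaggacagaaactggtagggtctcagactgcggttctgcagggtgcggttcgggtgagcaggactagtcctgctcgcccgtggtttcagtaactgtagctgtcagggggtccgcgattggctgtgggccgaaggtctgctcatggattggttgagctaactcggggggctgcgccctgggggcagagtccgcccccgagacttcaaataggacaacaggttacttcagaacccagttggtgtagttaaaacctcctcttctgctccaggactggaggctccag
Rgs5: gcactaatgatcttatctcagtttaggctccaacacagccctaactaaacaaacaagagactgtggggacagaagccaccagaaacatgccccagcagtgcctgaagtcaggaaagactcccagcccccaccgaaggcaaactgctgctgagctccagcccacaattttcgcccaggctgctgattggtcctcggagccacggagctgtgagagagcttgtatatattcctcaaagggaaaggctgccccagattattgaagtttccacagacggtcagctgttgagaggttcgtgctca
Myl9: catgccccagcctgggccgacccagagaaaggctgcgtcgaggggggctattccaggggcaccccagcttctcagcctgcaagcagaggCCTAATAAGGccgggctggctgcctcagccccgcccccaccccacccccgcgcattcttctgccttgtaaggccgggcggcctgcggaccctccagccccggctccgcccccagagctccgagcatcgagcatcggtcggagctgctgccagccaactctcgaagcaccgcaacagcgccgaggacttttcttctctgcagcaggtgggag

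All 27 endothelial genes had counts in every library, and at least 8 of the 10 mural genes did, with Tagln and Anpep at 0 in some libraries of every group. The summed endothelial level, in counts scaled to a common library size (CPM), ran from 632 to 809 in lean mice with a median of 735, from 707 to 979 in vehicle-treated obese mice with a median of 870, and from 734 to 999.9 in TN-783-treated mice with a median of 775. The summed mural level ran from 164 to 199 in lean mice with a median of 179, from 179.7 to 259 with vehicle (median 217) and from 179 to 251 with TN-783 (median 187). The groups overlapped in both sums, and TN-783 replicate 4 was the highest of its group in both. In bulk tissue, fewer cells of a type and less RNA per cell cannot be told apart.

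**Figure D1:**
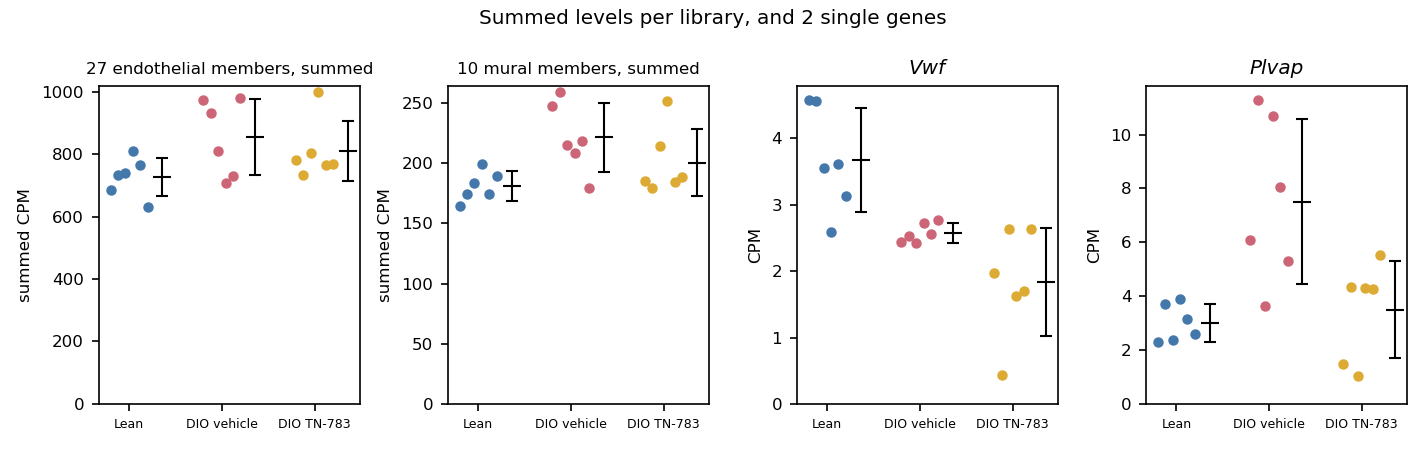
Summed CPM of the 27 endothelial and of the 10 mural genes, and CPM of Vwf and of Plvap, a gene of fenestrated vessels, in each library; points are libraries and bars the mean ± SD of 6. The vehicle median lies above the lean median in both sums while the groups overlap, and Vwf runs the other way, with 0 of 6 vehicle libraries above the lean median.

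Other cells of the dissected tissue also differed between the libraries, and their part in the vascular values was not tested. Vehicle replicates 2 and 4 held anterior pituitary transcripts, with a summed level of 10779 and 6706 CPM against 17.3 to 183 in the other 16 libraries. The same 2 libraries had the highest summed level of the 6 fibroblast genes, at 124.6 and 114 CPM, though not every gene was high. Dcn had 167 and 117 counts there and 20 to 67 in lean libraries. Col1a1 had 18 and 16 counts there and 14 to 30 in lean libraries. The 5 haemoglobin and red cell genes summed to 357 to 707 CPM in lean mice, 320 to 2256 with vehicle and 1182 to 2144 with TN-783. The 4 oligodendrocyte genes were higher in vehicle than in lean mice by a median of 0.40 on the log2 scale, 4 of 4 in that direction, with sums of 2271 to 6041 CPM in lean and 2914 to 7221 CPM in vehicle-treated mice. The 5 astrocyte genes had a median of 0.17, 3 of them higher. The 4 neuron genes went the other way, 3 of 4 lower in vehicle than in lean mice with a median of -0.22. Their sums were 1090 to 1682 CPM in lean and 1110 to 1707.5 CPM in vehicle-treated mice. Lean replicate 6 stood apart from its group and held the highest lean oligodendrocyte sum, 6041 CPM. On the axis of largest variation over all tested genes it lay at -30.8, against 13.6 to 31.7 in the other lean libraries. Vehicle replicate 6 lay at -32.6 on that axis. For some genes, differences that involve the vehicle group are also given without vehicle replicates 2 and 4.

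The first comparison set vehicle-treated obese mice against lean mice, which differed in diet and gavage together. No vascular gene passed the test: edgeR's quasi-likelihood test, adjusted over 11835 genes, called 0 of 24 endothelial and 0 of 7 mural genes, against 1 of all genes tested (0.00845%), which was Sgk1, no vessel marker (log2 difference 1.75, SE 0.26, adjusted p 0.0315). DESeq2 also called 0 vascular genes. With limma voom 1 was called, Slc2a1, among 133 of all genes called. Calls over all genes in each setting are given below with the dependence on processing. In direction, 18 of the 24 endothelial genes and 7 of the 7 mural genes had a fitted log2 difference above 0 in the obese mice, against 51.1% of all genes. Their median log2 differences were 0.25 and 0.21, against 0.01 over all genes. At an unadjusted p under 0.05, 5 endothelial genes (Slc2a1, Esam, Pecam1, Ocln and Flt1) and 1 mural gene (Rgs5) were higher and 0 were lower, against 5.32% of all genes higher and 5.55% lower. DESeq2 gave the same counts, and limma voom gave 7 endothelial genes higher and 1 lower. No vascular gene had groups that did not overlap, against 0.161% of all genes with every vehicle library higher and 0.228% with every one lower. Without vehicle replicates 2 and 4 the endothelial genes were 17 higher and 7 lower with a median of 0.31, the mural genes 7 and 0 with a median of 0.19, and the counts at an unadjusted p under 0.05 were 5 and 1. Those counts moved with other libraries and settings: endothelial genes came to 9 higher without vehicle replicate 4, 8 higher and 2 lower without vehicle replicate 5, 3 higher without vehicle replicate 1, 4 higher and 2 lower without lean replicate 6, and 3 higher with the RNA integrity number as a covariate. The mural count was 2 without lean replicate 2, vehicle replicate 4 or vehicle replicate 5. Shares over all genes at this unadjusted threshold, here and in the later comparisons, are those of the main fit. They were not counted in the other settings, so the counts of those settings cannot be set against a background.

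**Figure D2:**
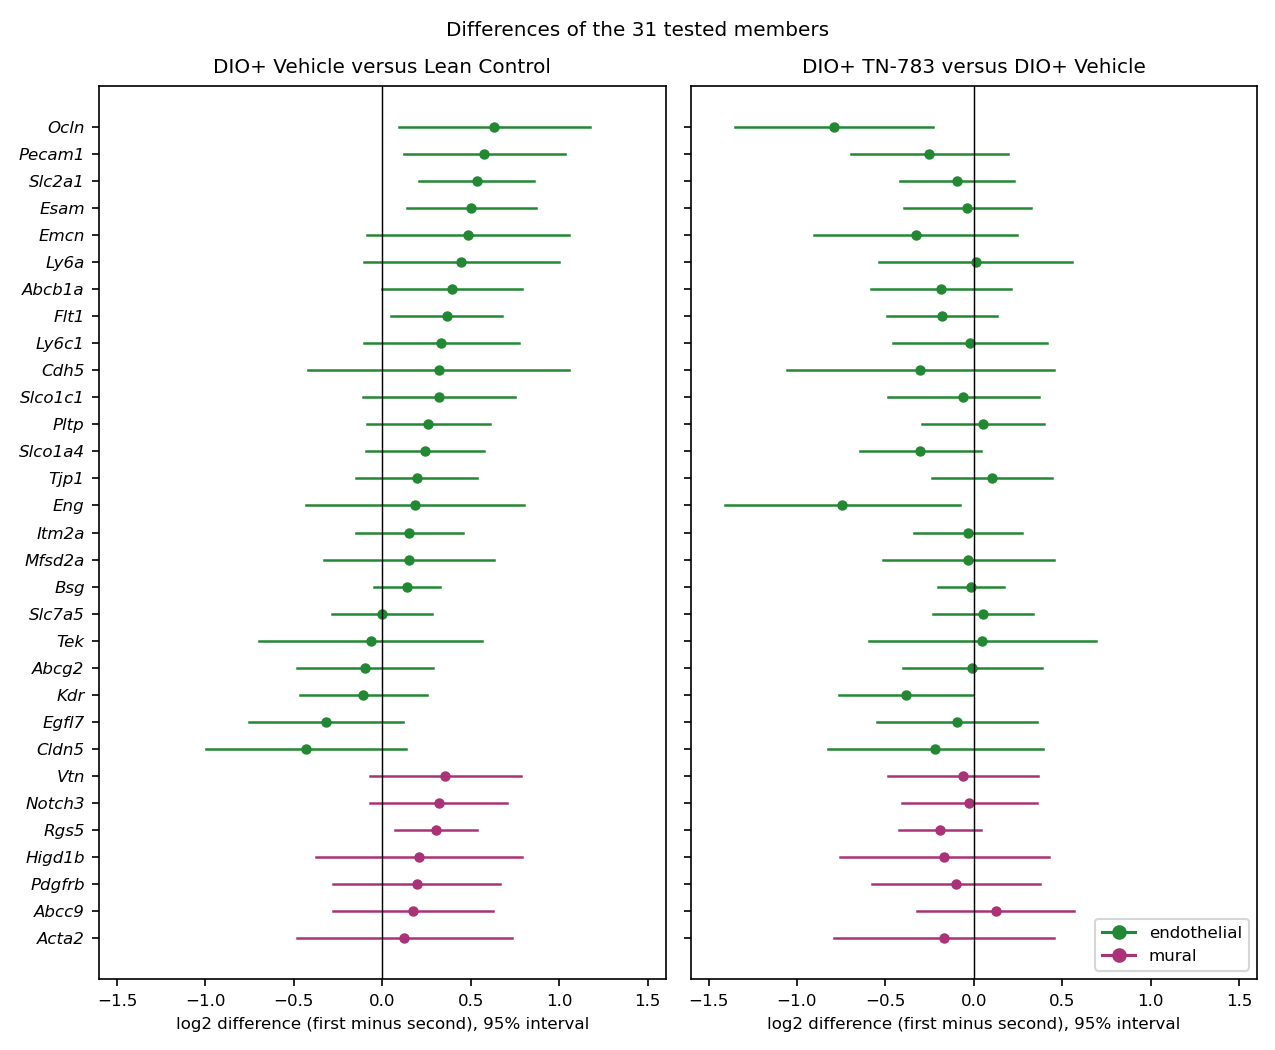
Log2 difference of each of the 31 tested genes with its 95% interval, vehicle-treated obese minus lean at left and TN-783 minus vehicle at right; both panels share the vehicle libraries. At left 18 of 24 endothelial points and all 7 mural points lie above 0, and at right 5 of 24 and 1 of 7 do.

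Among the influx carriers, Slc2a1, the glucose transporter GLUT1 of the barrier, had the smallest p of the vascular genes. Its level in lean mice was 50.6 CPM at the lowest, 70.1 at the median and 86.4 at the highest. In vehicle-treated mice it was 75.7, 100.5 and 121 CPM. All 6 vehicle libraries lay above the lean median, but the upper 3 lean libraries lay above the lowest vehicle library, so the groups overlapped. The means were 69.0 ± 16.0 and 99.5 ± 19.2 CPM (SD, n = 6 each), a log2 difference of 0.53 (SE 0.16), with an edgeR adjusted p of 0.278. The adjusted p was 0.0164 with no filter on low counts, 0.0354 with limma voom and 0.0479 without lean replicate 6, and the call was made in these settings. Across all settings tried it ran from 0.0164 to 0.589. The settings with a call also called more of all genes than the main fit, among them limma voom (133) and the fit without lean replicate 6 (346).

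The remaining carriers differed by less. Mfsd2a, which takes up lysophosphatidylcholine carrying docosahexaenoic acid and restrains transcytosis, had a lowest, median and highest level of 20.3, 32.6 and 65.3 CPM in lean and 25.8, 40.5 and 58.2 CPM in vehicle-treated mice. The groups overlapped almost fully, and the log2 difference of 0.15 (SE 0.23) became 0.04 without lean replicate 6, 0.38 without lean replicate 4 and 0.29 without vehicle replicates 2 and 4. Slco1a4 and Slco1c1, organic anion and thyroid hormone carriers, differed by 0.24 and 0.32 (0.50 for Slco1c1 without vehicle replicates 2 and 4), and Slc7a5, the large neutral amino acid carrier, by -0.0005, with a 95% interval from -0.28 to 0.28. Bsg, a membrane glycoprotein that chaperones monocarboxylate carriers, differed by 0.14 (SE 0.09). Of the efflux pumps, Abcb1a (P-glycoprotein) differed by 0.39 (SE 0.19, 5 of 6 vehicle libraries above the lean median) and Abcg2 by -0.10 (SE 0.19).

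The junction genes went in both directions. Esam, an immunoglobulin-type adhesion molecule of endothelial junctions, had a lowest, median and highest level of 10.4, 14.3 and 15.2 CPM in lean mice and 11.1, 20.6 and 28.1 CPM in vehicle-treated mice. The vehicle libraries spread more widely, and 5 of 6 lay above the lean median, for a log2 difference of 0.50 (SE 0.18, edgeR adjusted p 0.351). Pecam1, the platelet endothelial adhesion molecule, had 5.47, 6.64 and 10.5 CPM in lean and 7.94, 10.4 and 12.8 CPM in vehicle-treated mice. All 6 vehicle libraries exceeded the lean median although the groups overlapped, with a log2 difference of 0.58 (SE 0.22, edgeR adjusted p 0.369). Ocln, occludin of the tight junction, averaged 4.54 ± 1.22 CPM in lean and 6.95 ± 1.92 CPM in vehicle-treated mice, 6 of 6 vehicle libraries above the lean median, with a log2 difference of 0.63 (SE 0.26, edgeR adjusted p 0.394). Tjp1, the scaffold protein ZO-1, and Cdh5, VE-cadherin of adherens junctions, differed by 0.19 and 0.32, each with an interval that spans 0. Without vehicle replicates 2 and 4 the difference was 0.42 for Pecam1 (SE 0.25) and -0.04 for Cdh5.

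Cldn5, the claudin that seals the barrier, had the opposite sign. Its lowest, median and highest levels were 6.76, 15.5 and 19.3 CPM in lean and 4.84, 12.1 and 16.5 CPM in vehicle-treated mice. Only 1 of 6 vehicle libraries lay above the lean median, and the vehicle libraries split into 3 between 14.7 and 16.5 CPM and 3 between 4.84 and 9.55 CPM. The log2 difference was -0.43 (SE 0.27, edgeR adjusted p 0.561), and -0.16 with the RNA integrity number as a covariate. Egfl7, a secreted protein of endothelial cells that shapes vessel tubes, went the same way, at 31.5 ± 8.06 CPM in lean and 25.7 ± 8.10 CPM in vehicle-treated mice (log2 difference -0.32, SE 0.21, and -0.17 without vehicle replicates 2 and 4 or with the RNA integrity covariate).

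Of the growth factor receptors, Flt1, the VEGF receptor that binds VEGF-A tightly and limits its signal, had a lowest, median and highest level of 53.1, 76.8 and 96.1 CPM in lean and 67.9, 93.1 and 126 CPM in vehicle-treated mice. Here 5 of 6 vehicle libraries lay above the lean median and the groups overlapped, with a log2 difference of 0.36 (SE 0.15, edgeR adjusted p 0.395). Kdr, the main signalling receptor for VEGF-A, differed by -0.11 (SE 0.18), by -0.35 without vehicle replicates 2 and 4, and by 0.09 with the RNA integrity number as a covariate. Tek, the angiopoietin receptor, differed by -0.07 (SE 0.31) and by -0.54 without vehicle replicates 2 and 4, and Eng, the co-receptor endoglin of the TGF-beta family, by 0.18 (SE 0.30). The surface and secreted markers Emcn, Ly6a, Ly6c1, Pltp and Itm2a, which are used to recognise brain endothelium, differed by 0.48, 0.45, 0.33, 0.26 and 0.15, and every one of these intervals included 0.

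Among the mural genes, Rgs5, a regulator of G protein signalling that marks pericytes, had the smallest p. Its lowest, median and highest levels were 111, 125 and 152 CPM in lean and 116, 160.0 and 179 CPM in vehicle-treated mice. In 5 of 6 vehicle libraries it lay above the lean median, and vehicle replicate 6 was low. The log2 difference was 0.30 (SE 0.11, edgeR adjusted p 0.358). Vtn, vitronectin, which pericytes secrete, had 9.52, 11.4 and 16.6 CPM in lean and 9.79, 17.7 and 20.8 CPM in vehicle-treated mice, overlapping groups with a log2 difference of 0.36 (SE 0.21). Pdgfrb, the receptor by which pericytes are recruited, had 5.92, 7.63 and 8.64 CPM in lean and 5.73, 8.44 and 12.8 CPM in vehicle-treated mice, and the wider vehicle range enclosed the lean one (log2 difference 0.19, SE 0.23). Notch3, the Notch receptor of mural cells, averaged 13.8 ± 2.40 CPM in lean and 17.4 ± 4.18 CPM in vehicle-treated mice, 6 of 6 vehicle libraries above the lean median (log2 difference 0.32, SE 0.19, edgeR adjusted p 0.534, and 0.19 without vehicle replicates 2 and 4). Higd1b and Abcc9, a mitochondrial protein and a subunit of ATP-sensitive potassium channels, both marking pericytes, differed by 0.21 and 0.17, and each by 0.03 without vehicle replicates 2 and 4.

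The contractile side was weakly covered. Acta2, smooth muscle actin, had a lowest, median and highest level of 3.46, 4.28 and 6.77 CPM in lean and 3.28, 5.26 and 7.25 CPM in vehicle-treated mice, with a log2 difference of 0.12 (SE 0.30). The vehicle range enclosed the lean range. Myl9, the regulatory myosin light chain whose start region held the CArG box, ran from 2.37 to 4.41 CPM in lean, from 3.20 to 5.15 CPM with vehicle and from 2.88 to 6.48 CPM with TN-783, and 5 of 6 vehicle libraries lay above the lean median. Tagln, the actin-binding transgelin, and Anpep, an aminopeptidase of pericytes, stayed at or below 1.84 CPM in every library and were not detectable in some.

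**Figure D3:**
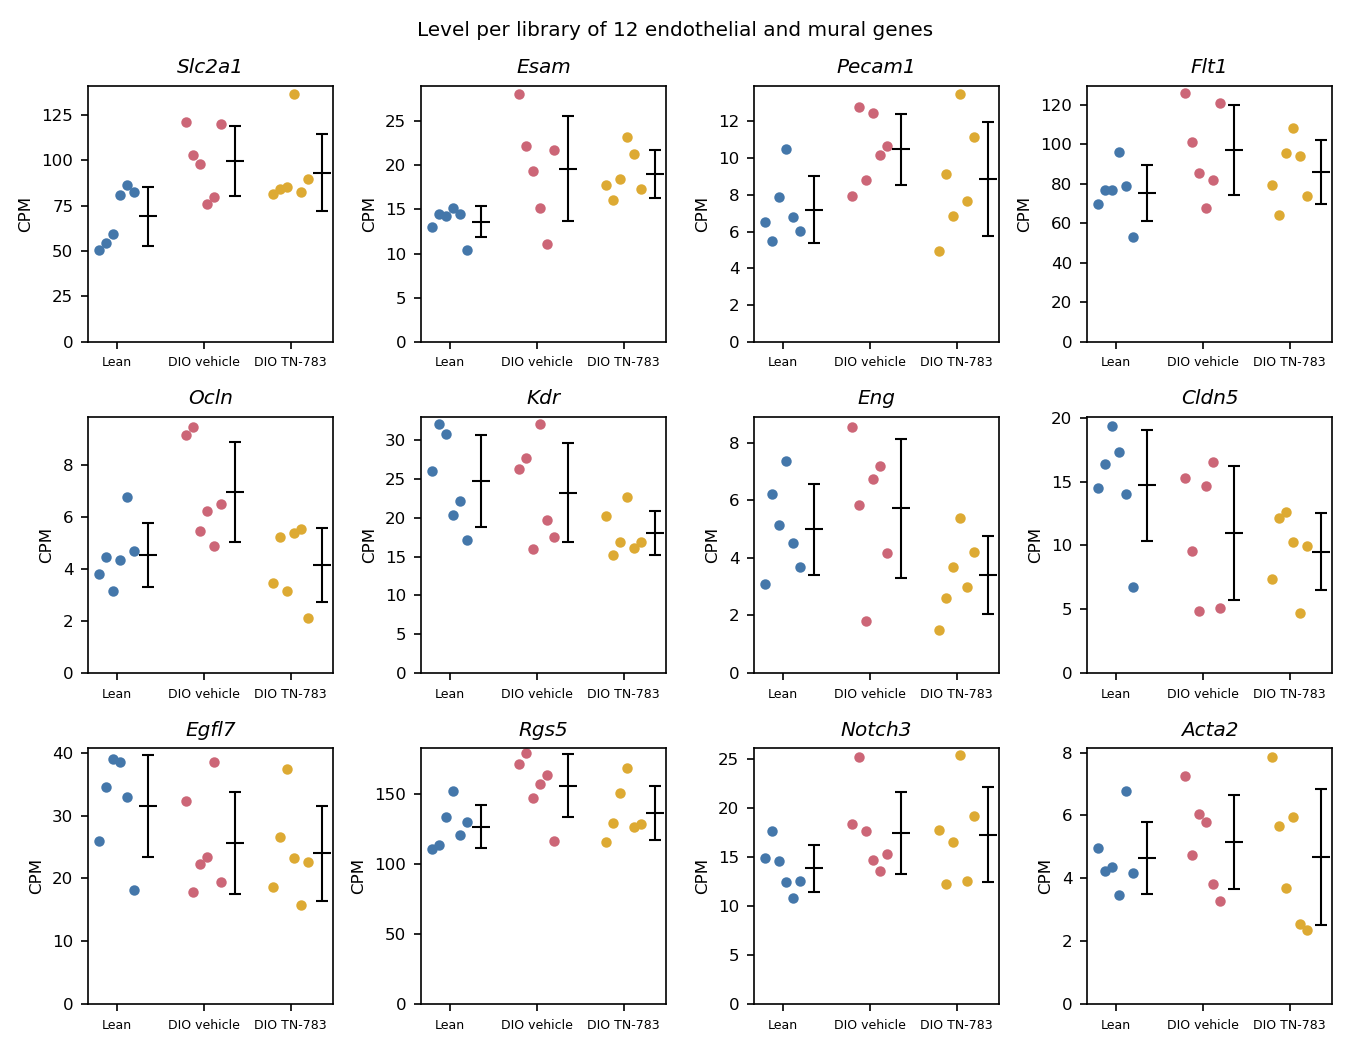
CPM of 12 endothelial and mural genes in each library of the 3 groups; points are libraries and bars the mean ± SD of 6. Slc2a1, Pecam1 and Ocln have all 6 vehicle points above the lean median, Cldn5 has 1 of 6, and the groups overlap in every panel except Esam, where TN-783 lies wholly above lean.

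The second comparison, TN-783 against vehicle in obese mice, addresses the effect of the NLRP3 inhibitor. It shares the vehicle libraries with the first, so a low or high vehicle value enters both with opposite signs. No vascular gene passed the test in edgeR, DESeq2 or limma voom (0 of 24 and 0 of 7, against 0 of 11835 genes, a percentage of 0). The fitted log2 difference was below 0 for 19 endothelial and 6 mural genes and above 0 for 5 and 1, and the medians were -0.08 and -0.10, against -0.00 over all genes. At an unadjusted p under 0.05, edgeR found 3 endothelial genes lower, namely Ocln, Eng and Kdr, and 0 mural genes, against 1.59% of all genes lower and 1.02% higher. DESeq2 and limma voom each found 2 endothelial genes lower, and limma voom 1 mural gene. The endothelial count was 1 without vehicle replicate 1, TN-783 replicate 2 or TN-783 replicate 5, and 4 without TN-783 replicate 4. The mural count was 1 without TN-783 replicate 4 or vehicle replicate 6. No vascular gene had groups that did not overlap, against 0.0338% of all genes with every TN-783 library higher and 0.0253% with every one lower. Without vehicle replicates 2 and 4 the endothelial genes were again 5 higher and 19 lower, with a median of -0.13, and the mural genes 3 and 4, with a median of -0.13.

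Ocln had a lowest, median and highest level of 4.90, 6.36 and 9.47 CPM with vehicle and 2.10, 4.33 and 5.53 CPM with TN-783. None of the 6 TN-783 libraries reached the vehicle median, though the upper TN-783 libraries overlapped the lower vehicle ones. The log2 difference was -0.79 (SE 0.27, unadjusted p 0.00738, edgeR adjusted p 1.00), and it ranged from -0.90 to -0.60 when single libraries were left out. Against lean mice the TN-783 group differed in Ocln by -0.16 (SE 0.28), with 3 of 6 libraries above the lean median.

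Eng had 1.81, 6.29 and 8.55 CPM with vehicle and 1.48, 3.33 and 5.40 CPM with TN-783. Vehicle replicate 3 was low, at the level of the TN-783 libraries, and 0 of 6 TN-783 libraries lay above the vehicle median (log2 difference -0.74, SE 0.32, unadjusted p 0.0295, edgeR adjusted p 1.00). Kdr had 16.0, 23.0 and 32.1 CPM with vehicle and 15.2, 16.9 and 22.7 CPM with TN-783. The TN-783 libraries sat in the lower part of the vehicle range, with 0 of 6 above its median, and the log2 difference of -0.38 (SE 0.18, unadjusted p 0.0470, edgeR adjusted p 1.00) was -0.14 without vehicle replicates 2 and 4. Slco1a4 also had 0 of 6 TN-783 libraries above the vehicle median, at 24.0 ± 4.85 against 29.8 ± 5.98 CPM (log2 difference -0.30, SE 0.17).

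Several defining endothelial markers had intervals that include 0 between the 2 obese groups. Slc2a1 was at 81.2, 84.7 and 137 CPM with TN-783 (lowest, median, highest), a log2 difference from vehicle of -0.10 (SE 0.16) with a 95% interval from -0.42 to 0.23. Here 5 of the 6 TN-783 libraries fell between 81.2 and 89.6 CPM and replicate 4 stood alone at 137 CPM. Esam differed by -0.04 (interval -0.39 to 0.32), Flt1 by -0.18 (-0.49 to 0.13), Pecam1 by -0.25 (-0.70 to 0.19), Mfsd2a by -0.03 (-0.51 to 0.45) and Cldn5 by -0.22 (-0.83 to 0.39). All of these intervals reach well below 0, so the values do not show that the groups are alike. Without vehicle replicates 2 and 4 the difference was -0.27 for Flt1, -0.17 for Mfsd2a and -0.17 for Slc2a1. It was -0.09 for Pecam1 and -0.15 for Cldn5. Tek differed between the 2 obese groups by 0.05, and by -0.17 to 0.53 over the alternatives run. Cdh5 differed by -0.30, and by -0.55 to 0.06 over the alternatives.

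Of the mural genes, Rgs5 was at 116, 129 and 168 CPM with TN-783, and 1 of 6 libraries lay above the vehicle median (log2 difference -0.19, SE 0.11, interval -0.42 to 0.04). Pdgfrb differed by -0.10 (SE 0.23), and by -0.32 without TN-783 replicate 4, which at 14.4 CPM was the highest of its group. Vtn differed by -0.06 (SE 0.21), Higd1b by -0.17 (SE 0.29), Acta2 by -0.17 (SE 0.30), Notch3 by -0.03 (SE 0.19) and Abcc9 by 0.12 (SE 0.22). Acta2 varied widely within the TN-783 group, from 2.37 to 7.87 CPM. Without vehicle replicates 2 and 4, Higd1b and Notch3 changed sign, to 0.01 and 0.10, while Rgs5 came to -0.13 and Vtn to -0.17. Abcc9 ran from 0.05 to 0.32 over the alternatives run.

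The third comparison, TN-783-treated obese against lean mice, shares the TN-783 libraries with the second and the lean libraries with the first. Again 0 of 24 endothelial and 0 of 7 mural genes passed edgeR's test, against 0 of 11835 genes (0%), and DESeq2 and limma voom called 0 of them. The fitted log2 difference was above 0 for 16 endothelial and 6 mural genes, with medians of 0.12 and 0.11 against -0.00 over all genes. At an unadjusted p under 0.05, 2 endothelial genes were higher and 2 lower, against 3.81% and 4.35% of all genes, and DESeq2 gave the same counts. They were 4 higher and 1 lower without lean replicate 4, and 1 lower without lean replicate 2 or 3 or TN-783 replicate 1 or 5. Esam was 16.1 to 23.2 CPM with TN-783 and 10.4 to 15.2 CPM in lean mice, so that the groups did not overlap, as for 0.220% of all genes in this direction (log2 difference 0.47, SE 0.18, edgeR adjusted p 0.611). Slc2a1 lay above the lean median in 6 of 6 libraries (log2 difference 0.44, SE 0.16, edgeR adjusted p 0.611), and by 0.30 without TN-783 replicate 4. Kdr and Cldn5 lay below the lean median in all 6 TN-783 libraries, with log2 differences of -0.49 (SE 0.18) and -0.65 (SE 0.28), both at an edgeR adjusted p of 0.611. The Cldn5 levels with TN-783 were 4.68, 10.1 and 12.7 CPM at the lowest, median and highest. Of the remaining markers, Flt1 differed from lean mice by 0.18 (SE 0.15), Pecam1 by 0.32 (SE 0.22), Mfsd2a by 0.12 (SE 0.23), Rgs5 by 0.11 (SE 0.11), Vtn by 0.29 (SE 0.21), Notch3 by 0.29 (SE 0.19), Pdgfrb by 0.09 (SE 0.23) and Acta2 by -0.04 (SE 0.30).

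Ordered by group mean, vehicle stood highest and lean lowest for 12 endothelial and 6 mural genes. The order TN-783, vehicle, lean held for 4 endothelial genes and 1 mural gene, and lean, vehicle, TN-783 for 4 endothelial genes. Adjacent groups in these orders overlapped in every gene tested except Esam, whose TN-783 libraries all lay above the lean ones, so the order of means is a description. Vwf, the clotting factor von Willebrand factor, was not tested and followed the last order. It was at 2.60, 3.58 and 4.58 CPM in lean (lowest, median, highest), 2.42, 2.54 and 2.78 CPM with vehicle and 0.435, 1.83 and 2.64 CPM with TN-783. None of the 6 vehicle libraries and none of the 6 TN-783 libraries reached the lean median. With no filter on low counts, its log2 difference between TN-783 and lean mice was -0.97 (SE 0.41, edgeR adjusted p 0.602). Tie1 and Sox17, an orphan receptor and a transcription factor of endothelium, stayed at or below 4.20 CPM in every library, with group means within 1 SD of each other.

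The genes varied in part by library rather than by group. Vehicle replicate 1 and TN-783 replicate 4 had the highest mean endothelial deviation, 0.34 each in log2 CPM from the gene means, and lean replicate 6 the lowest at -0.31. For mural genes the highest were vehicle replicate 2 at 0.40, vehicle replicate 1 at 0.32 and TN-783 replicate 4 at 0.30. As a description over 18 libraries that share scaling and depth, with group means removed, the median pairwise Pearson r was 0.16 among the 24 endothelial genes (median Spearman rho 0.12), 0.10 among the 7 mural genes and 0.16 between the 2 classes, against -0.0004 over all genes. Cldn5 and Egfl7, singled out after their values were seen, were both lowest in replicate 6 and highest in replicate 3 of the lean mice, and both lowest in replicate 5 and highest in replicate 3 of the TN-783 group. The vehicle replicates with little Cldn5, namely 3 and 6 at 4.84 and 5.09 CPM, had Slc2a1 at 98.0 and 120 CPM. Vehicle replicate 1, with 25 Cldn5 counts against 8 and 11 in those 2, had the highest Slc2a1 of the group, at 121 CPM. Over the 18 libraries, with group means removed, the Pearson r of Cldn5 and Slc2a1 was -0.26 (Spearman rho -0.30).

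**Figure D4:**
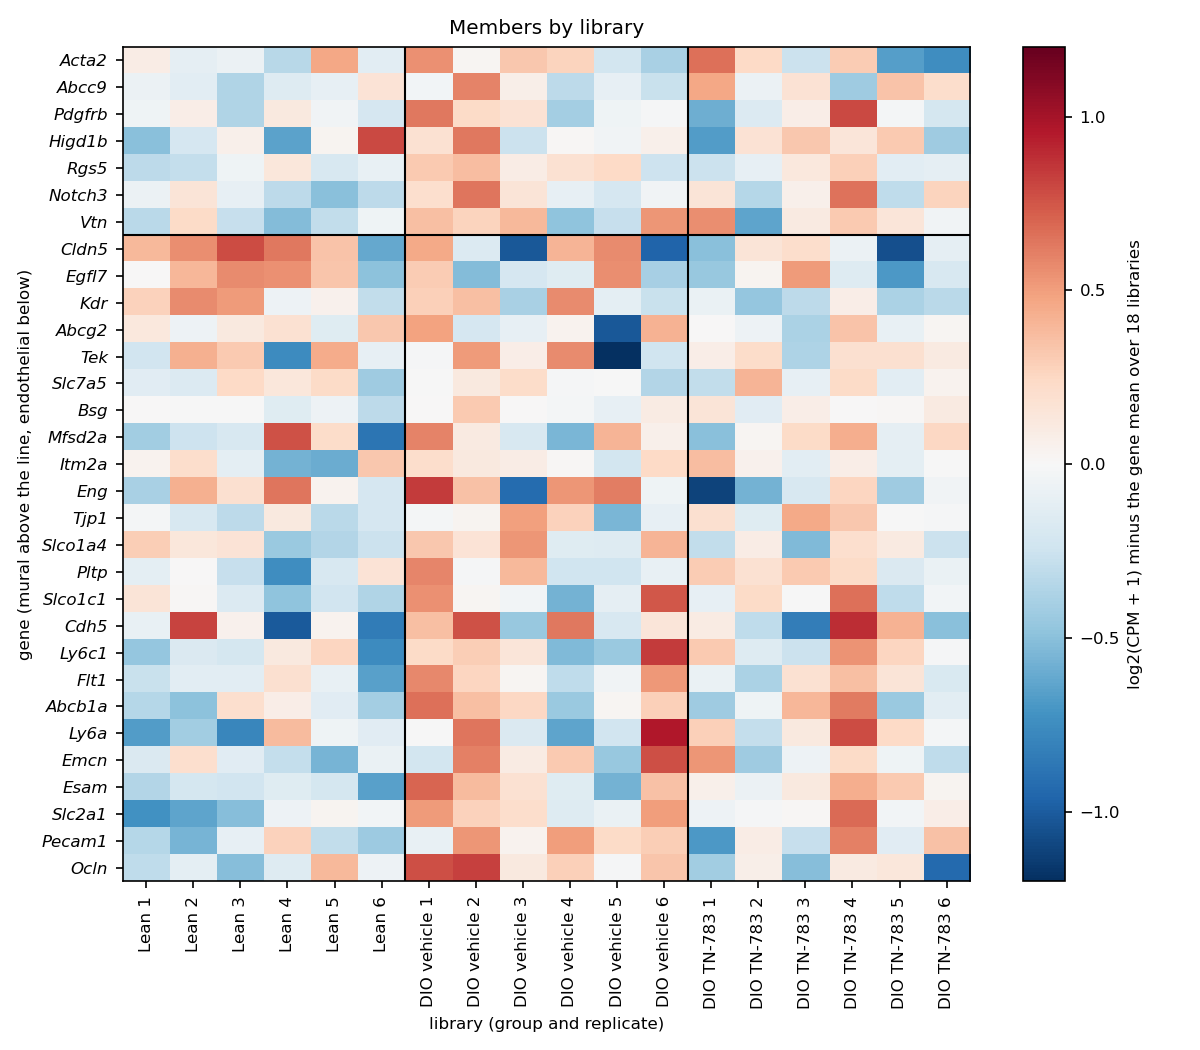
Log2(CPM + 1) of the 31 tested genes in each of the 18 libraries, minus the gene's mean over all libraries (colour, red higher and blue lower); mural genes are above the horizontal line. Vehicle replicate 1 and TN-783 replicate 4 are red over most genes and have the highest endothelial means (0.34 each in log2 CPM), and lean replicate 6 is the lowest (-0.31).

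Further genes with roles in vessels were read from lists compiled by function, chosen with earlier results of these data known. The lists were not limited to genes of vessel cells, so in bulk tissue their values cannot be assigned to vessels. EdgeR called 0 genes of any list in any comparison. Among 9 vascular growth factor ligands, 7 were tested. Vegfb, a ligand of Flt1, was at 43.3 ± 5.25 CPM in lean and 53.3 ± 5.14 CPM in vehicle-treated mice (log2 difference 0.31, SE 0.11, edgeR adjusted p 0.343), while Vegfa, the ligand of Kdr, differed by -0.21 and Angpt1, the ligand of Tek, by 0.17. Among 12 other receptor and junction genes, 9 were tested, 7 higher and 2 lower in vehicle than in lean mice. Nrp2, a co-receptor for VEGF and semaphorins that neurons also use, was at 48.9 ± 10.1 CPM in lean and 34.2 ± 4.63 CPM in vehicle-treated mice (log2 difference -0.52, SE 0.14, edgeR adjusted p 0.236), and S1pr1, a receptor for sphingosine 1-phosphate, differed by 0.27 (SE 0.10).

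Of 12 endothelial transcription factors, 7 were tested, 6 of them higher in vehicle-treated mice with a median of 0.24. Klf2, induced by blood flow, was at 17.4 ± 4.97 CPM in lean and 24.3 ± 6.23 CPM in vehicle-treated mice (log2 difference 0.49, SE 0.20, edgeR adjusted p 0.394, and 0.33 without vehicle replicates 2 and 4), and 5 of the 7 factors were lower with TN-783 than with vehicle (median -0.32), Klf2 by -0.36. Of 13 genes of Wnt signalling and barrier induction, 10 were tested, 9 of them higher in vehicle than in lean mice, with a median of 0.09. Of 8 vessel Notch genes 6 were tested, with a median of 0.10, and of 13 other barrier transporters 10 were tested, with a median of 0.09. Of 6 leukocyte adhesion genes 2 were tested. Vcam1, which captures leukocytes, differed by 0.28 (SE 0.11) between vehicle and lean mice, and the other gene by 0.02. Of 10 basement membrane genes 4 were tested, with a median of 0.22 between vehicle and lean mice and values from -0.00 to 0.61. Col4a1, a collagen IV chain, was at 5.25 ± 0.769 CPM in lean, 8.01 ± 2.20 CPM with vehicle and 8.90 ± 3.29 CPM with TN-783, a log2 difference of 0.61 (SE 0.25, edgeR adjusted p 0.389) between vehicle and lean mice. Of 14 other mural and contractile genes 5 were tested, with a median of 0.04 between vehicle and lean mice and values from -0.23 to 0.40. The highest was Mylk, the myosin light chain kinase, at 0.40 (SE 0.13, edgeR adjusted p 0.314). Of 7 arterial and venous genes 3 were tested, 0 of them higher in vehicle than in lean mice.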

How the data were processed

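Hypothalamus RNA of 18 mice, 6 in each of 3 groups, was measured by 3′ RNA-seq with unique molecular identifiers, per the labels. The authors deposited estimated counts per gene, of which 12.0% were not whole numbers, together with library totals, a scaling factor (a ratio) per library, log2 CPM values and the RNA integrity score of each sample. The submitters' processing notes list GRCm39 as the build, R 4.5.1 with edgeR 4.6.2, and both Salmon 1.10.1 and STAR 2.7.9a, with no roles. Sources used here do not give how molecular identifiers or strand were handled. The deposited log2 CPM were recomputed from the deposited estimated counts and factors to within rounding, and were not used further.

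The estimated counts were rounded to whole numbers and tested with edgeR 4.0.16 in R 4.3.3: genes were kept by filterByExpr at a minimum count of 10 (11835 of 56980), scaled by TMM, and fitted in 1 quasi-likelihood model of 3 groups with robust estimation (15 residual degrees of freedom, common biological coefficient of variation 0.169). The planned design assumed counts, and rounding was the step that estimated counts need. P-values were adjusted by Benjamini-Hochberg over all genes tested, with a threshold of 0.05. The standard error is the log2 difference divided by the square root of F. CPM are counts relative to the TMM-scaled library size. Per-sample values were given for 10 defining markers, for genes called and for the 3 endothelial and 2 mural genes with the smallest p in each comparison. Ocln, Notch3, Egfl7, Vwf and Myl9 were also described after their values were seen, although their groups overlapped. The genes and lists were chosen with earlier results of these data known. Alternatives used DESeq2 1.42.0, limma 3.58.1, other scaling and filters, and left-out libraries. The test was checked on simulated counts with known changes. The labels do not state whether replicate numbers pair animals, so the numbers were not used as pairs. Correlations of deviations between same-numbered samples ran from -0.400 to 0.385, over 0.1 in 3 of 6 vehicle and lean pairs. They cannot decide whether the numbers pair animals. No 2 replicates agreed within sampling noise. Start regions are RefSeq sequences on GRCm38.p6.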

Additional observations from a re-analysis of the deposited data

Results flagged for a closer look

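In groups of 6 libraries, 8 of 117 sets of values had a library that stood apart from the other 5 by Dixon's gap test, and chance gives about 1 in 20, or 5.85. TN-783 replicate 4 was high in 3 of them: Slc2a1 at 137 CPM, with the others between 81.2 and 89.6, Pdgfrb at 14.4 CPM, with the others between 4.92 and 8.42, and the summed endothelial level at 999.9 CPM, with the others between 734 and 805. TN-783 replicate 3 was low in Tek, at 3.69 CPM against 5.41 to 6.09, and TN-783 replicate 1 was high in Itm2a, at 45.7 CPM against 32.2 to 37.2. Among lean mice, replicate 1 was high in Tie1, at 4.20 CPM against 0.745 to 1.71, and replicate 6 was high in Higd1b, at 9.89 CPM against 3.03 to 5.53. Vehicle replicate 2, one of the libraries with pituitary transcripts, was high in Abcc9, at 10.9 CPM against 5.34 to 7.26.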

How the results depend on the processing

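The median log2 differences of the endothelial and mural genes kept their sign in all 3 comparisons under every alternative run (vehicle against lean, endothelial 0.20 to 0.31 and mural 0.13 to 0.30), but their sizes moved. Between TN-783 and vehicle the endothelial median ran from -0.16 (without TN-783 replicate 4) to -0.03 (without vehicle replicate 1), and the mural median was -0.20 and -0.02 without these libraries and -0.21 with limma voom. Between TN-783 and lean mice the endothelial median ran from 0.08 to 0.16, and the mural median from 0.04 (without TN-783 replicate 4) to 0.26 (without lean replicate 6). The count of endothelial genes called between vehicle and lean mice was 1, Slc2a1, with no filter and with limma voom, and 0 to 1 when single libraries were left out; the mural count stayed at 0, as did both counts in the other comparisons. The count over all genes was less stable. Between vehicle and lean mice it was 22 with DESeq2, 126 with no filter, 133 with limma voom, 0 with at least 1 CPM in 6 libraries, 0 with the 2 groups alone, 0 without the pituitary-containing libraries, and 0 to 346 with single libraries left out (346 without lean replicate 6). Between TN-783 and vehicle it was 6 with no filter. Between TN-783 and lean mice it was 10 with DESeq2, 27 with no filter, 5 with the 2 groups alone, 2 with the RNA integrity number as a covariate, 9 with limma voom, 1 with the replicate block, and 0 to 5 with single libraries left out. The cause was not tested.

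Kdr, at -0.11 between vehicle and lean mice, came to 0.09 with the RNA integrity covariate. Between TN-783 and vehicle, Slc2a1 came to 0.00594 with the RNA integrity covariate, and Higd1b to 0.0128 without the pituitary-containing libraries. With single libraries left out, the TN-783 minus vehicle differences ran from -0.16 to 0.0802 for Esam, -0.14 to 0.0771 for Mfsd2a, -0.32 to 0.0200 for Pdgfrb, -0.25 to 0.00539 for Higd1b, -0.17 to 0.0571 for Vtn and -0.38 to 0.0154 for Acta2, and the TN-783 minus lean differences from -0.25 to 0.14 for Acta2 and -0.12 to 0.19 for Pdgfrb. In 3 of 6 same-numbered vehicle and lean pairs the correlation of deviations exceeded 0.1, and in 0 of 6 in either other comparison. The labels do not state whether numbers pair animals, and these correlations cannot decide it, so numbers were not used as pairs. The replicate block changed no call of a vascular gene. Depth limits the rare genes: Tie1, Sox17, Vwf, Myl9, Tagln and Anpep were below the count minimum in the main fit. Tagln and Anpep were at 0 in some libraries of every group. Myl9 was tested in 16 of the alternatives, with vehicle minus lean differences from 0.33 to 0.55. Its lowest edgeR adjusted p there was 0.357, without lean replicate 6.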

Other observations

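Vessels without a barrier were read through Plvap, the diaphragm protein of fenestrae, whose lowest, median and highest levels were 2.29, 2.88 and 3.89 CPM in lean mice, 3.63, 7.08 and 11.3 CPM with vehicle and 1.05, 4.28 and 5.52 CPM with TN-783. In the vehicle group replicates 2 and 4, the libraries with pituitary transcripts, were highest at 11.3 and 10.7 CPM, and vehicle replicate 3 alone overlapped the lean range. The log2 difference between vehicle and lean mice was 1.32 (SE 0.32, edgeR adjusted p 0.207), and 0.92 (SE 0.36, edgeR adjusted p 0.419) without those 2 libraries. It passed the threshold with no filter on low counts (edgeR adjusted p 0.0178) and without lean replicate 6 (edgeR adjusted p 0.0408), where 346 of all genes were called. Between TN-783 and vehicle it was -1.05 (SE 0.32, edgeR adjusted p 1.00), and -0.65 without the 2 libraries. Esm1, a secreted proteoglycan of endothelial cells, was at 20.4 and 8.46 CPM in vehicle replicates 2 and 4 and at or below 1.73 CPM in the other 16 libraries. The part of pituitary tissue in these values was not tested.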
